A study of Mus musculus with 6 samples.

Results

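The vascular endothelial growth factor (VEGF) genes of ID8 cells, a mouse ovarian cancer line from C57BL/6 mice that is grown in culture, were examined before and after exposure to the chemokine CCL6. The group comprised the 8 genes Vegfa, Vegfb, Vegfc, Pgf, Flt1, Kdr, Nrp1 and Nrp2 and was taken by gene symbol from the 22206 probe sets of the Clariom S mouse array. Of the 8 genes, 7 had a probe set with that symbol, 1 each, and Nrp1 was not analysed here. CCL6 cells had 24 h without serum and were stimulated with 200 ng/mL recombinant CCL6 for 6 h, and unstimulated cells had the same serum-free period and received no CCL6. Each group held 3 arrays that the labels call biological replicates. All arrays came from 1 cell line, and no vehicle is named for the unstimulated cells. Values are RMA values on the log2 scale, in which background correction, normalization between arrays and the probes of a probe set are already combined into 1 number. The signal of a probe set depends on its probes as well as on its transcript, so no gene was ranked against another by level.

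VEGF ligands are secreted dimers that drive the growth and permeability of blood and lymphatic vessels, and VEGF-A from ovarian cancer cells is known for its part in tumour angiogenesis and ascites. VEGF-A binds the receptor tyrosine kinases encoded by Flt1 and Kdr, VEGF-B and placental growth factor (Pgf) bind the Flt1 product, and VEGF-C binds the products of Flt4 and Kdr. Neuropilins, encoded by Nrp1 and Nrp2, are co-receptors for VEGF ligands and also bind class 3 semaphorins together with plexins.

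The sequence just upstream of the transcription start is shown for Vegfa and Vegfb, the ligand genes above background with the largest positive and negative difference, and for Flt1, the receptor gene of this group above background. Each run is the 250 bases before the start in RefSeq's annotation of GRCm38.p6, read 5′ to 3′ on the strand of the gene, at chr17:46032378-46032627 for Vegfa, chr19:6987652-6987901 for Vegfb and chr5:147726012-147726261 for Flt1, all on the minus strand. Capitals mark GC boxes (GGGCGG on either strand) and, in Flt1, also a cAMP response element (TGACGTCA) and a TATA box (TATAAA).
Vegfa: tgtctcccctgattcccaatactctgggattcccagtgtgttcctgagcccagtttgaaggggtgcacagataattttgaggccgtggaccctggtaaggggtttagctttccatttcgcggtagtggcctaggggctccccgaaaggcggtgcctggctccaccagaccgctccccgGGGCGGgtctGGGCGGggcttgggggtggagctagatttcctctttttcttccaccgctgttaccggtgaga
Vegfb: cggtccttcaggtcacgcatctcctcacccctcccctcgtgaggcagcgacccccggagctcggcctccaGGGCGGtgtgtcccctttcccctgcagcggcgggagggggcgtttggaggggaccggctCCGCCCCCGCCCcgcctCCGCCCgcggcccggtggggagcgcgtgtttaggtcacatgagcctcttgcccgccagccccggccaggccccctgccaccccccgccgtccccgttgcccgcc
Flt1: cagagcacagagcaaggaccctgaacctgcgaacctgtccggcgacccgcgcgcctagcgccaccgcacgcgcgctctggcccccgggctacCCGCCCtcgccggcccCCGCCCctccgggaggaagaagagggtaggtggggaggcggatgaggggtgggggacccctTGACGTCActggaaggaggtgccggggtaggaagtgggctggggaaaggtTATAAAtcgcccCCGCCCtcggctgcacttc

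Vegfa had 2 GC boxes, beginning 72 and 62 bases before the start, and Vegfb had 4, of which 3 lay on the opposite strand. Flt1 had 3 GC boxes, and its cAMP response element and TATA box began 81 and 31 bases before the start. RefSeq gave 9 such windows for the 7 measured genes, with a second start for Vegfa and for Pgf. A GC box was present in 8 of the 9 windows and in 32.7% of all 32851 windows of the same length. The GC content of the 9 windows ran from 59.2% to 76.4%, and the median of all windows was 52.4%. The cAMP response element was found in 1 window, that of Flt1, and in 1.55% of all windows, and the TATA box likewise in 1 window and in 12.4% of all windows. The core of the hypoxia response element was searched on both strands as ACGTG and as GCGTG, and matches of different motifs could overlap. ACGTG was present in 1 of the 9 windows, the one at the second start of Vegfa, and in 16.6% of all windows, and GCGTG in 6 of the 9 and in 28.2% of all windows. A match describes the letters of the window and is no measure of binding.

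Array medians lay between 5.42 and 5.49 on the log2 scale. A background level of 4.85 was set at the 95th percentile of 1440 probe sets for taste, vomeronasal and olfactory receptors, whose transcripts belong to sensory cells, and 56.5% of probe sets had a group mean above it. Of the ovarian surface and mesothelial markers 9 of 10 lay above background, the keratin genes Krt8, Krt18 and Krt19 among them, and Epcam did not. Krt7 passed only through the CCL6 group (mean 5.09, and 4.78 in unstimulated cells). Endothelial markers, which matter here because Flt1 and Kdr are best known from endothelium, lay above background in 2 of 11 cases, Esam and Vwf, whereas Pecam1, Cdh5, Tek and Tie1 did not. Of the macrophage markers 1 of 7, Cd14, lay above background, and of the fibroblast markers 3 of 6, Col1a1, Col3a1 and Dcn. Treatment did not divide the arrays along their first principal component, which held 50.8% of the variance. CCL6 replicates 1 and 2 and unstimulated replicate 3 had positive scores there, and CCL6 replicate 3 and unstimulated replicates 1 and 2 negative ones. A list of 18 proliferation genes divided the arrays in the same way, with a mean of 12.91, 13.27 and 11.52 in CCL6 replicates 1 to 3 and 11.73, 11.96 and 13.21 in unstimulated replicates 1 to 3. Since bulk RNA was measured, a smaller share of cells with a transcript and less transcript per cell cannot be told apart.

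Transcripts of 5 of the 7 measured genes, Vegfa, Vegfb, Vegfc, Flt1 and Nrp2, lay above the background level on all 6 arrays. Those of Pgf and Kdr lay below it on every array. After CCL6, Vegfa was 1.80-fold higher on average, Vegfc 1.33-fold, Flt1 1.23-fold and Nrp2 1.15-fold higher, and Vegfb was 1.38-fold lower. None of these differences passed the test across all genes, in which limma with Benjamini-Hochberg adjustment gave an adjusted p of 0.999 for each of the 7 genes. At an adjusted p under 0.05 the called share of all probe sets was 0%, so a lack of calls was not particular to these genes. With no adjustment, 685 probe sets or 3.08% had a p under 0.05, 1.28% of all on the higher and 1.81% on the lower side. Of the 7 genes 1 was higher and 0 were lower at that limit. In 8.19% of probe sets the 2 groups did not overlap, and they overlapped in all 7 of these genes. Of the 5 genes above background 4 were higher after CCL6, as were 51.4% of all probe sets above background, and of the 7 measured genes 5 were higher, as were 48.5% of all probe sets.

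**Figure D1:**
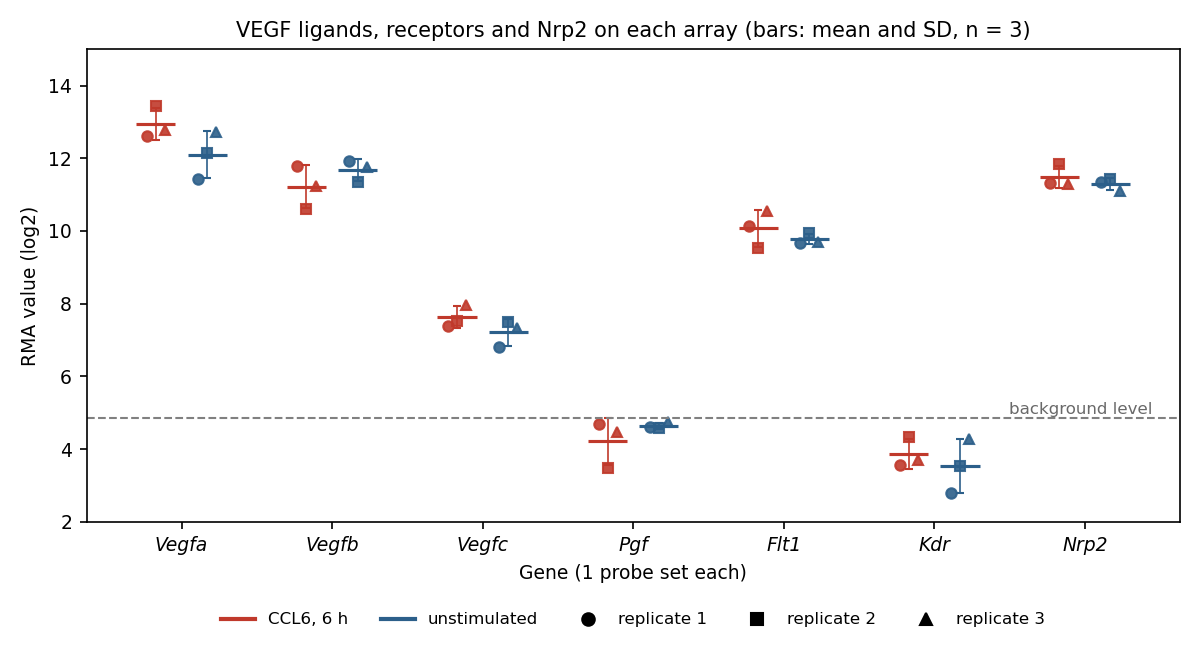
RMA value (log2) of each of the 7 measured genes on each of the 6 arrays, with CCL6 (red) left of unstimulated (blue), the mean as a horizontal bar, the SD as an error bar (n = 3 each) and the background level of 4.85 as a dashed line. Pgf and Kdr lie below the line on every array, the other 5 genes lie above it on every array, and the groups overlap in each gene.

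Among the ligands, Vegfa showed the largest difference. Vegfa encodes the main angiogenic ligand and was read by probe set TC1700002162.mm.2, which the annotation assigns to 9 RefSeq transcripts, so that its splice forms cannot be told apart. It read 12.63, 13.45 and 12.77 in CCL6 replicates 1 to 3 and 11.44, 12.14 and 12.72 in unstimulated replicates 1 to 3. The groups overlapped only through unstimulated replicate 3, which lay above CCL6 replicate 1. The mean was 12.95 ± 0.44 after CCL6 and 12.10 ± 0.64 in unstimulated cells (SD, n = 3 each), a log2 difference of 0.85 (SE 0.37; 95% interval 0.00022 to 1.69). The unadjusted limma p was 0.04995, and the exact permutation test, two-sided, gave p = 0.2, where 3 arrays against 3 allow no value below 0.1. A difference of at least this size in either direction was seen in 295 probe sets above background, or 2.35% of them.

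The position of Vegfa at the edge of the unadjusted limit depended on the fit. The unadjusted p was 0.0521 after cyclic loess, 0.0584 when only probe sets above background were fitted, 0.132 with the methods' t-test and 0.0174 at its lowest among the fits of all 6 arrays, with array weights. Without unstimulated replicate 1, the array with the lowest Vegfa value, the difference was 0.52, and without CCL6 replicate 2, the array with the highest, it was 0.60. Leaving out unstimulated replicate 3 gave 1.15. Its sign was positive in every fit that was run. Some of these fits change the test and not the difference, so their sign was fixed.

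Vegfb, which encodes a ligand of the Flt1 receptor known from heart and muscle, differed in the opposite direction. Its probe set TC1900001027.mm.2 read 11.80, 10.61 and 11.25 in CCL6 replicates 1 to 3 and 11.93, 11.36 and 11.75 in unstimulated replicates 1 to 3. CCL6 replicate 2, the array with the highest Vegfa value, had the lowest Vegfb value, and CCL6 replicate 1 lay within the unstimulated range. The means were 11.22 ± 0.60 and 11.68 ± 0.29 in CCL6 and unstimulated cells (SD, n = 3 each), a log2 difference of -0.46 (SE 0.34; 95% interval -1.23 to 0.30). The unadjusted limma p was 0.205 and the exact permutation p 0.3. Without CCL6 replicate 2 the difference was -0.16 and without CCL6 replicate 1 it was -0.75. Taken within each array, Vegfa minus Vegfb was 0.83, 2.84 and 1.53 in CCL6 replicates 1 to 3 and -0.48, 0.79 and 0.97 in unstimulated replicates 1 to 3. The groups overlapped in this measure too, by CCL6 replicate 1 and unstimulated replicate 3, and the difference of its means, 1.31, had an exact permutation p of 0.2 (two-sided). The pair was chosen after its values were seen, and the measure shows unequal change of 2 probe sets and no ratio of transcripts.

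Vegfc, which encodes the lymphangiogenic ligand, was read by probe set TC0800000587.mm.2 at 7.40, 7.51 and 7.97 in CCL6 replicates 1 to 3 and at 6.80, 7.50 and 7.33 in unstimulated replicates 1 to 3. The overlap came from unstimulated replicate 2, which lay between CCL6 replicates 1 and 2. The log2 difference was 0.42 (SE 0.28; 95% interval -0.23 to 1.06), with an unadjusted limma p of 0.178 and an exact permutation p of 0.2. It was 0.21 without unstimulated replicate 1 and 0.24 without CCL6 replicate 3. Pgf, the placental growth factor gene (probe set TC1200002089.mm.2), read 4.69, 3.48 and 4.47 in CCL6 replicates 1 to 3 and 4.62, 4.58 and 4.74 in unstimulated replicates 1 to 3. All 6 values lay below background, so no fold is given, and a reading at this level does not show that the transcript was absent.

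Among the receptors, Flt1 lay above the background level and Kdr below it. Flt1 encodes VEGF receptor 1, which also occurs as a soluble form that traps ligand. Its probe set TC0500003629.mm.2 is assigned to 1 RefSeq transcript in the annotation, and whether it reads the soluble form was not tested. Flt1 read 10.13, 9.53 and 10.55 in CCL6 replicates 1 to 3 and 9.68, 9.94 and 9.71 in unstimulated replicates 1 to 3. CCL6 replicates 1 and 3 lay above all unstimulated arrays and CCL6 replicate 2 lay below all of them. The SD was 0.51 after CCL6 and 0.14 in unstimulated cells (n = 3 each), and the log2 difference was 0.29 (SE 0.30; 95% interval -0.38 to 0.97). The unadjusted limma p was 0.350 and the exact permutation p 0.4. The difference was 0.05 without CCL6 replicate 3 and 0.56 without CCL6 replicate 2.

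Kdr encodes VEGF receptor 2, the main signalling receptor of endothelial cells. Its probe set TC0500002623.mm.2 read 3.57, 4.33 and 3.70 in CCL6 replicates 1 to 3 and 2.78, 3.55 and 4.27 in unstimulated replicates 1 to 3, below background on all 6 arrays. Its measured difference of 0.33 (SE 0.40) turned to -0.04 without unstimulated replicate 1. As for Pgf, a reading at this level does not show that the transcript was absent. Flt4, the receptor of the VEGF-C and VEGF-D ligands, was not part of the 8 genes but completes the receptor family. It lay above background with 9.38, 9.87 and 8.80 in CCL6 replicates 1 to 3 and 8.88, 9.07 and 10.01 in unstimulated replicates 1 to 3, a difference of 0.03 (SE 0.38) whose sign differed in 4 of 15 other fits. Vegfd, the remaining ligand gene, read 6.75, 6.08 and 7.82 in CCL6 replicates 1 to 3 and 7.62, 7.34 and 6.25 in unstimulated replicates 1 to 3. Its difference of -0.19 (SE 0.49) changed sign in 3 of 15 other fits.

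The neuropilin gene Nrp2 was the least variable of the 7 genes. Its probe set TC0100000509.mm.2, assigned to 6 RefSeq transcripts, read 11.31, 11.85 and 11.30 in CCL6 replicates 1 to 3 and 11.35, 11.42 and 11.10 in unstimulated replicates 1 to 3. Only CCL6 replicate 2 lay outside the unstimulated range. The log2 difference was 0.20 (SE 0.25; 95% interval -0.38 to 0.78), with an unadjusted limma p of 0.462 and an exact permutation p of 0.6. It was 0.02 without CCL6 replicate 2. An upper bound of 0.78 does not show that Nrp2 was the same in both groups.

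**Figure D2:**
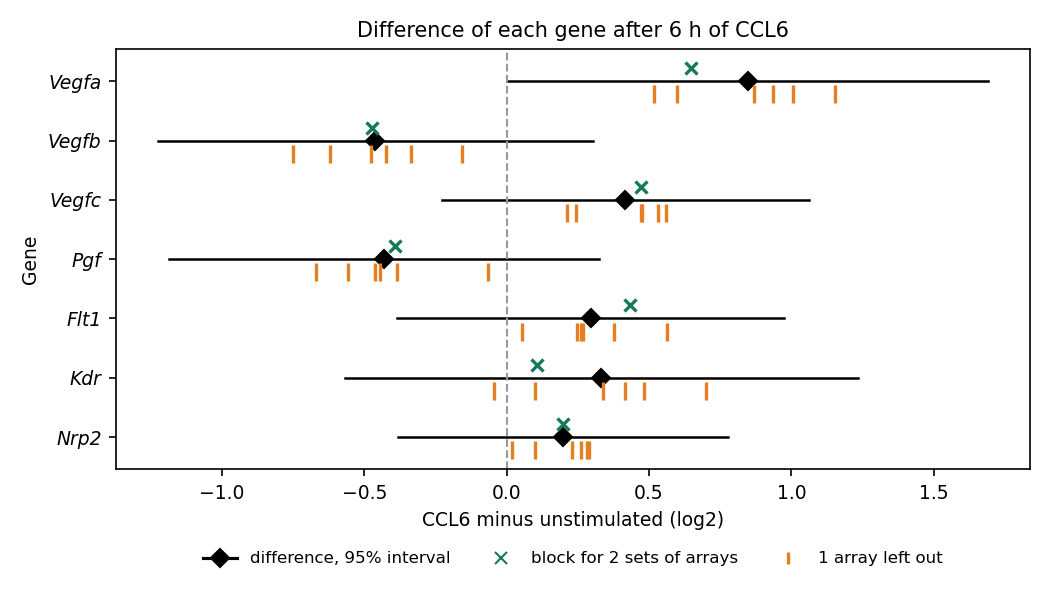
Log2 difference, CCL6 minus unstimulated, of the 7 measured genes with its 95% interval (limma, 3 arrays per group), the value in a fit with a block for 2 sets of arrays (green) and the values with 1 array left out (orange). The Vegfa interval runs from 0.00022 to 1.69, the other intervals span 0, and only Kdr has a value of the opposite sign when 1 array is left out.

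The spread between replicates differed among the genes. The residual SD of Vegfa was 0.55, above that of 76.0% of probe sets above background, and that of Nrp2 was 0.25, above 24.3% of them. Those of Vegfb, Flt1 and Vegfc were 0.47, 0.38 and 0.33, beside a median of 0.38 over probe sets above background. Over all 6 arrays Vegfa spanned 2.005 on the log2 scale, Vegfb 1.32, Vegfc 1.17, Flt1 1.02 and Nrp2 0.75.

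Part of the Vegfa spread followed the sets of arrays on either side of the first principal component. Vegfa averaged 12.93 on the 3 arrays with positive scores and 12.12 on the 3 with negative scores, a gap of 0.81 beside its treatment difference of 0.85. A gap at least as large was seen in 15.7% of probe sets above background. The sets are unbalanced for treatment, with CCL6 replicates 1 and 2 in the positive set and only CCL6 replicate 3 in the negative. The gap and the treatment difference therefore each hold part of the other. Among the positive arrays CCL6 replicates 1 and 2 lay 0.32 above unstimulated replicate 3 on average, and among the negative arrays CCL6 replicate 3 lay 0.98 above unstimulated replicates 1 and 2 on average. With the set as a block the difference of Vegfa was 0.65 (SE 0.33), and limma gave an unadjusted p of 0.0868, or 0.795 when adjusted over all probe sets. The sets were taken from these same values, so a block fit leaves that axis out of the spread behind its SE and p. The part of proliferation in the Vegfa difference was not tested. For the other genes of this group above background the gap between the sets was smaller, at -0.27 for Flt1, -0.13 for Vegfb, 0.06 for Nrp2 and -0.01 for Vegfc. Flt4 and Vegfd, which are not part of the 8 genes, had larger gaps than Vegfa, at 0.83 and -1.23. The set block gave 0.43 (SE 0.28) for Flt1, -0.47 (SE 0.35) for Vegfb, 0.47 (SE 0.29) for Vegfc and 0.20 (SE 0.26) for Nrp2. Vegfb, Vegfc and Flt1 had the same sign within both sets, with -0.55 and -0.40, 0.12 and 0.82, and 0.12 and 0.74 in the positive and negative set, whereas Nrp2 had 0.48 and -0.08.

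**Figure D3:**
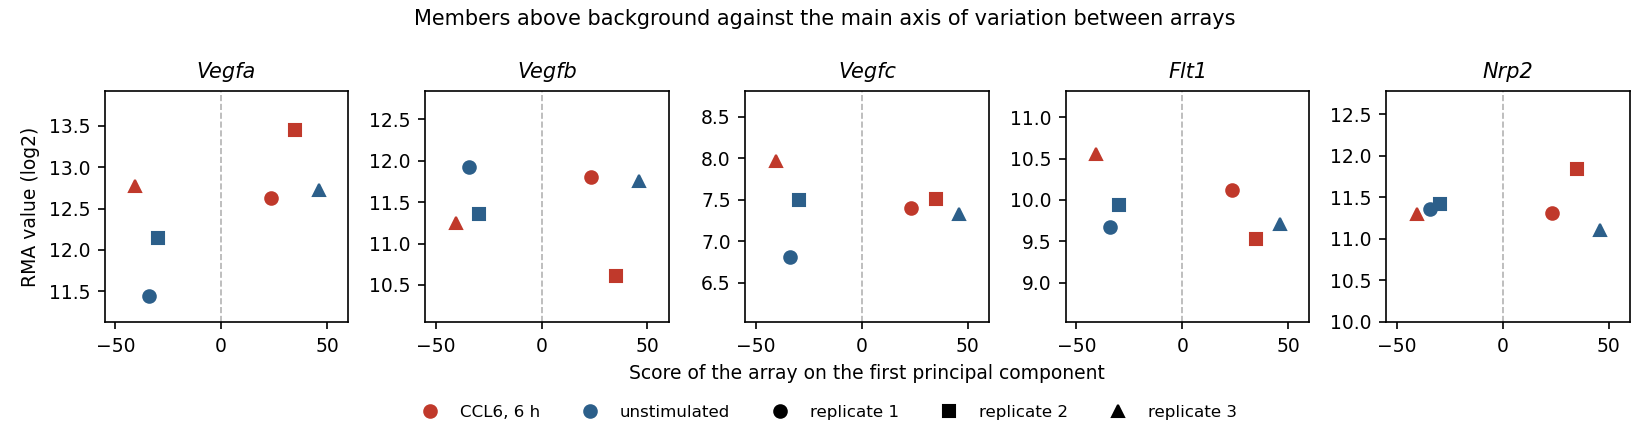
RMA value (log2) of the 5 genes above background against the score of each array on the first principal component, 1 point per array, with CCL6 in red, unstimulated in blue and the replicate number as the shape; each panel spans the same length of the log2 scale. Vegfa averaged 12.93 on the arrays with positive scores and 12.12 on those with negative scores, while the means of Vegfc in the 2 sets differed by 0.01.

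The genes whose values over the 6 arrays resembled each gene most were taken from 10954 named probe sets above background by Pearson correlation. For Vegfa these were Rbm41, an RNA-binding protein gene, Nup98, a nucleoporin gene, and Fkbp15, each at r = 0.99. For Vegfb they were the mitochondrial ribosome gene Mrpl35, Klhl2 and the intraflagellar transport gene Ift20 (r = 0.98 to 0.99), and for Vegfc they were Zscan25, the cohesin release gene Wapl and the RNA editing gene Adar (r = 0.98 to 1.00). Those of Flt1 were the kinase gene Taok2, Nkiras1 and the histone methyltransferase gene Nsd1 (r = 0.97 to 0.98), and those of Nrp2 were Pafah1b2, the Polycomb gene Suz12 and the G protein gene Gnas (r = 0.96 to 0.99). None of these sets of 3 genes held another VEGF gene. With 6 arrays high values of r were common, since 192 genes had r above 0.9 with Vegfa, 172 with Vegfb, 71 with Vegfc, 43 with Nrp2 and 42 with Flt1.

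Neuropilins share their ligands with plexins, and of 13 class 3 semaphorin, plexin and adaptor genes 12 lay above background. Of these 5 were higher and 7 lower, with a median log2 difference of -0.01 beside 0.01 over all probe sets above background. An unadjusted limma p under 0.05 was seen in 1 of the 12, beside 3.11% of all probe sets above background. Groups did not overlap in 1 of the 12, beside 7.85% of all probe sets above background. The balance of the list depended on the arrays, with 9 higher and 3 lower with the array set as a block (median 0.14), 10 and 2 without CCL6 replicate 2 (median 0.13) and 3 and 9 without CCL6 replicate 3 (median -0.13). The gene at the unadjusted limit was Plxna4, a plexin that pairs with neuropilins, which read 9.47, 10.09 and 9.77 in CCL6 replicates 1 to 3 and 10.23, 10.39 and 10.55 in unstimulated replicates 1 to 3. Its groups did not overlap, and the log2 difference was -0.62 (SE 0.25), with an unadjusted limma p of 0.0391, an adjusted p of 0.999 and an exact permutation p of 0.1. The unadjusted p was 0.127 without CCL6 replicate 1. Sema3e, a semaphorin that binds the plexin D1 receptor directly, read 12.94, 13.05 and 13.60 in CCL6 replicates 1 to 3 and 12.64, 12.99 and 12.53 in unstimulated replicates 1 to 3, a difference of 0.47 (SE 0.27) with overlap at unstimulated replicate 2. Plxnd1 itself had means of 4.91 and 4.66 in CCL6 and unstimulated cells, just above and below background. It passed only through the CCL6 group, so its place among the higher genes was set by that filter.

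Of 20 signalling genes downstream of VEGF receptors 18 lay above background, 6 of them higher and 12 lower, with a median of -0.04. The protein kinase C gene Prkcb was the only one of the 18 with an unadjusted p under 0.05, beside 3.11% of all probe sets above background. Its unadjusted limma p was 0.00240 and its adjusted p 0.999. Prkcb passed the background level only through the CCL6 group, so its place among the 6 higher genes was set by that filter. It read 4.97, 4.999 and 4.65 in CCL6 replicates 1 to 3 and 3.83, 3.37 and 4.06 in unstimulated replicates 1 to 3. The groups did not overlap, but the CCL6 mean of 4.87 lay just above background and the unstimulated mean below it, so the fold is at least 1.02. Prkca, the related isoform that acts downstream of Kdr in endothelium, read 12.28, 12.89 and 12.24 in CCL6 replicates 1 to 3 and 11.54, 12.03 and 12.19 in unstimulated replicates 1 to 3, a difference of 0.55 (SE 0.29) without overlap. Groups did not overlap in 2 of the 18 genes, Prkcb and Prkca, beside 7.85% of all probe sets above background. The filter that let Prkcb in through the CCL6 group also favours a low p and a lack of overlap. The p of Prkcb and its place in this count are therefore no support for a change in this list. The receptor phosphatase gene Ptprb differed by -0.97 (SE 0.66), and its value followed the sets of arrays, with a gap of -1.78 between those with positive and negative scores. With the array set as a block the difference of Ptprb was -0.42, and with 1 array left out it ran from -1.53 without unstimulated replicate 3 to -0.29 without CCL6 replicate 2.

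Vegfa is a target of hypoxia-inducible factors, and 19 of 20 regulators and targets of that response lay above background. Of these 17 were higher and 2 lower after CCL6, with a median of 0.20. Over all probe sets above background 51.4% were higher and the median was 0.01. An unadjusted limma p under 0.05 was seen in 0 of the 19, beside 3.11% of all probe sets above background. The count became 11 higher and 8 lower with the array set as a block (median 0.03), and 10 higher and 9 lower without CCL6 replicate 2 (median 0.01). Hif1a, the oxygen-regulated subunit, read 14.74, 14.82 and 14.59 in CCL6 replicates 1 to 3 and 14.27, 14.24 and 14.50 in unstimulated replicates 1 to 3, a difference of 0.38 (SE 0.23) without overlap. Its partner subunit gene Arnt was on the other side, at 10.92, 10.68 and 10.92 in CCL6 replicates 1 to 3 and 11.13, 11.07 and 11.21 in unstimulated replicates 1 to 3, a difference of -0.30 (SE 0.22), also without overlap. Groups did not overlap in 2 of the 19 genes, beside 7.85% of all probe sets above background. Epas1, which encodes the related subunit HIF-2α, differed by 0.57 (SE 0.69) with a gap of 1.90 between the sets of arrays. Its sign differed in 2 of 15 other fits, at -0.07 with the set block and -0.0059 without unstimulated replicate 1, and it was 1.36 without unstimulated replicate 3. Ndrg1, a hypoxia target, differed by 0.53 (SE 0.51) with a gap of 1.44, and by 0.05 with the set block and 0.19 without CCL6 replicate 2. Vhl, which targets these subunits for degradation, differed by 0.03 (SE 0.29), with a sign that differed in 4 of 15 other fits and a range of -0.23 to 0.19 when 1 array was left out.

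Angiogenesis inhibitors lay above background in 9 of 12 cases, 6 of them higher and 3 lower, with a median of 0.14 that was 0.07 with the set block and 0.04 without CCL6 replicate 2. Thbs1, the thrombospondin gene, read 12.03, 11.05 and 11.85 in CCL6 replicates 1 to 3 and 12.51, 12.55 and 12.35 in unstimulated replicates 1 to 3, all 3 CCL6 arrays below all unstimulated ones. It was 1.77-fold lower (log2 difference -0.83, SE 0.30), with an unadjusted limma p of 0.0227, an adjusted p of 0.999 and an exact permutation p of 0.1. The difference ran from -1.02 to -0.53 when 1 array was left out, the smaller size being that without CCL6 replicate 2 (unadjusted limma p of 0.0851). Serpinf1, which encodes pigment epithelium-derived factor, read 7.40, 7.61 and 7.87 in CCL6 replicates 1 to 3 and 6.84, 7.30 and 6.96 in unstimulated replicates 1 to 3. It was 1.51-fold higher, again without overlap (log2 difference 0.59, SE 0.25), with an unadjusted limma p of 0.0434, an adjusted p of 0.999 and an exact permutation p of 0.1. The unadjusted p was 0.137 without CCL6 replicate 3. Groups did not overlap in 4 of these 9 genes, the other 2 being Adamts1 and the chemokine gene Cxcl10, beside 7.85% of all probe sets above background. An unadjusted limma p under 0.05 was seen in 1 higher and 1 lower gene of the 9, beside 3.11% of all probe sets above background. Of all probe sets above background 51.4% were higher. The genes of this list were chosen with results of these data known.

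**Figure D4:**
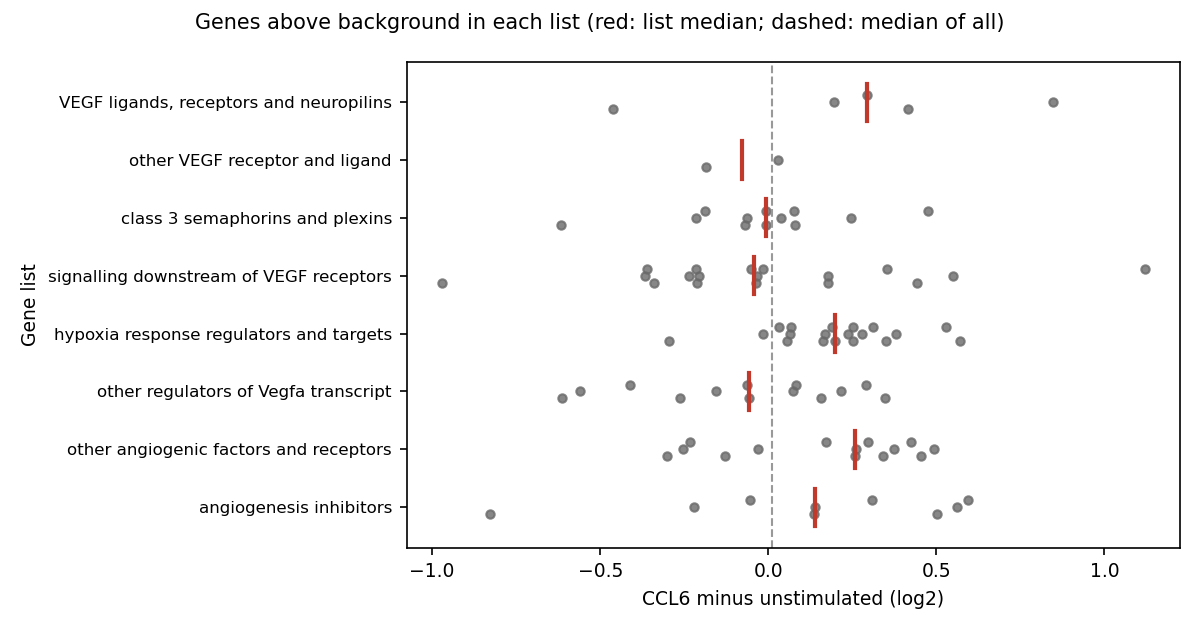
Log2 difference, CCL6 minus unstimulated, of each gene above background (points) in the VEGF group and 7 lists of related genes, with the list median (red) and the median of all probe sets above background, 0.01 (dashed). The median of the hypoxia response list lies at 0.20 with 17 of 19 genes above 0 (0.03 and 11 of 19 with the array set as a block), and single genes of the inhibitor list lie between -0.83 and 0.59.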

How the data were processed

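Total RNA from 6 samples was hybridised to 1 Clariom S mouse array each. The authors summarised each probe set by RMA and deposited log2 values. The RMA version and the genome build of the array are not given in the sources used here. Values lay between 1.93 and 19.2, from which base 2 was inferred, and all folds rest on it. Whether the scale was transformed further was not tested, and the folds would depend on that too. RMA makes the arrays' distributions alike, so a shift of most transcripts in one direction cannot be detected. The values were used without further normalization, and the number of arrays limits their precision. P-values weigh a difference against the spread between arrays of 1 cell line.

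Of 22206 probe sets 19572 had 1 gene symbol in the platform annotation and 2634 are unnamed in this report. All symbols were looked up in RefSeq's table of GRCm38.p6 by gene identifier, and 19572 of 19572 matched with the same symbol. Sequences came from RefSeq, where all 7 measured genes matched.

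The comparison of CCL6 with unstimulated cells used limma 3.58.1 (lmFit and eBayes, R 4.3.3; two-sided) on all 6 arrays. P-values were adjusted by Benjamini-Hochberg across the 22206 probe sets, with calls at an adjusted p under 0.05. The study's methods name no test for the arrays, and the methods' t-test was an alternative. Others were further normalizations, a background filter, array weights, blocks for replicate and array set, and leaving out each array. The fit was also run on simulated data in which probe sets varied independently. That run cannot show how the fit performs under the variation that these arrays share. Named genes were the 8 VEGF genes, Hif1a, Epas1, Vhl, Flt4 and Vegfd, up to 3 genes above background per list with the smallest unadjusted p, and the 3 genes most correlated with each VEGF gene above background. Further genes were named after their values were seen. Members and lists were chosen with earlier results of these data known. The lists of class 3 semaphorins, receptor signalling, hypoxia response, other regulators of Vegfa, other angiogenic factors and angiogenesis inhibitors are described by counts and medians, with no test of a list.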

Additional observations from a re-analysis of the deposited data

How the results depend on the processing

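Of 103 values of the 7 VEGF genes under other settings, 102 kept their direction and 0 passed an adjusted p under 0.05. The 1 exception was Kdr, below background, whose log2 difference ran from -0.044 to 0.70 when 1 array was left out. The background filter, the t-test, the replicate block and a fit with an intensity trend and robust variances return the same difference as reported. In those fits no gene could change direction, and the remaining fits reuse the same 6 arrays. The methods' t-test called 1 probe set at an adjusted p under 0.05 over the whole array, which was none of the VEGF genes, and limma called 0 under every other setting and at an adjusted p under 0.1. The count of probe sets at an unadjusted p under 0.05 was 685 as reported, 344 among probe sets above background, where fewer were tested, and 1365 with the array set block. That block was taken from the first principal component of the same values. It removes this axis from the residual spread by construction, so its count is not comparable with the others. The count ran from 428 without unstimulated replicate 1 to 1005 without unstimulated replicate 3, and was 443 without CCL6 replicate 2. The replicate block gave 474 and a Vegfa difference of 0.85 (SE 0.34), with an unadjusted limma p of 0.0485, and it changed no call. Deviations of same-numbered arrays from their group means correlated at -0.08, -0.23 and -0.66 over probe sets above background. These values carry the split along the first principal component, which puts CCL6 replicate 3 and unstimulated replicate 3 on opposite sides. They cannot show whether same-numbered arrays were prepared together, and the labels give only a replicate number. With the background level at the 90th percentile of receptor genes, 4.55, 5 VEGF genes lay above it in CCL6 cells and 6 in unstimulated cells, Pgf being the sixth, and at the 99th percentile, 5.48, 5 did in each group. Further normalization between arrays moved the median of all probe sets by less than 0.1 on the log2 scale. The 3 arrays per group and signal near background, as for Pgf and Kdr, limit what can be seen.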

Other observations

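Other growth factor genes of angiogenesis were read in the same cells. Of 26 measured genes of other angiogenic factors and receptors 14 lay above background, with 9 differences above 0 and 5 below and a median of 0.26 on the log2 scale. This balance turned round to 5 above and 9 below with the array set as a block (median -0.16) and to 4 and 10 without CCL6 replicate 2 (median -0.14), and over all 26 genes it was 12 and 14 (median -0.02). Of all probe sets above background 51.4% had a difference above 0. Of the 14 genes 0 had an unadjusted p under 0.05, beside 3.11% of all probe sets above background. Pdgfb, a platelet-derived growth factor gene, differed by 0.30 (SE 0.25), Ephb4, an ephrin receptor gene of veins, by -0.30 (SE 0.29), and Met, the receptor gene of hepatocyte growth factor, by -0.23 (SE 0.23). The angiopoietin genes Angpt1 and Angpt2 and their receptor gene Tek did not lie above background in either group.

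Of 13 measured genes for other regulators of the Vegfa transcript all lay above background in at least 1 group, 6 on the higher and 7 on the lower side. Tfap2a passed only through the unstimulated group (mean 5.01, and 4.75 after CCL6), so its place on the lower side was set by that filter. The median of the 13 genes was -0.06, and 0 had an unadjusted p under 0.05. Of all probe sets above background 51.4% were on the higher side and 3.11% had an unadjusted p under 0.05. Egr1, an immediate early transcription factor gene, differed by -0.41 (SE 0.32), and Zfp36, whose product destabilises transcripts with AU-rich elements, by -0.56 (SE 0.44). Neither had the same sign within both sets of arrays, with 0.34 in the set with positive scores and -0.91 in the set with negative scores for Egr1, and 0.07 and -0.60 for Zfp36, whose gap between the sets was -0.97. Elavl1, whose product stabilises such transcripts, read 11.56, 11.63 and 11.47 in CCL6 replicates 1 to 3 and 10.79, 11.17 and 11.66 in unstimulated replicates 1 to 3, a difference of 0.35 (SE 0.28) that was -0.06 within the positive set and 0.49 within the negative set.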
